A study of Homo sapiens with 5 samples.

Results

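The three-factor promoter regions are stretches of the genome that a Fra-1 peak, a MYC peak and an E2F1 peak all covered and that lay near a transcriptional start site (TSS). They were chosen by the overlap of called peaks: every stretch on chromosomes 1 to 22 and X with a peak of all 3 factors over at least 1 bp, kept when it touched a window from 2 kb upstream to 2.5 kb downstream of any annotated TSS. Of 1027 three-factor regions, 615 (59.9%) met this rule and the other 412 lay outside all windows. For scale, the peaks of the 3 factors merged into 43671 regions. The chromatin came from untreated LM2 cells, a derivative of the human breast cancer line MDA-MB-231 that metastasizes to the lung, grown as a single line. It was immunoprecipitated with an antibody against Fra-1, MYC or E2F1, with 1 library per factor and 1 input library as control, so no value here has a replicate spread. The fourth TF was not analysed here.

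Fra-1, the product of FOSL1, pairs with a JUN protein to form the AP-1 factor, which binds the AP-1 motif and is known from enhancers of genes that respond to growth signals. MYC pairs with MAX on the E-box and is best known at promoters of genes for ribosome production, translation and metabolism. E2F1 pairs with a DP protein, is held in check by the retinoblastoma protein and is best known at promoters of DNA replication and cell cycle genes. A TSS is where transcription of a gene begins, and many genes have several.

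The sequences shown first are from regions that held both an AP-1 motif (TGACTCA, or TGAGTCA as its other strand reads) and an E-box (CACGTG). Of the 267 regions that could be printed (at most 300 bp, no annotated exon), 17 held both, and the 8 with the largest minimum fold enrichment over the 3 factors are shown. Each is the plus strand of GRCh37 (hg19), 5′ to 3′, over the whole region, with the AP-1 motifs and E-boxes in capitals.
FOSL1, chr11:65666818-65667039: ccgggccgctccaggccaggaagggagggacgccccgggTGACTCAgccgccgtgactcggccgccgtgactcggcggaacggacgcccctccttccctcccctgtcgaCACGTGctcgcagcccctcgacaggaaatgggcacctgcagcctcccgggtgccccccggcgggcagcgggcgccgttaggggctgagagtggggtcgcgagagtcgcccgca
PDXK, chr21:45148366-45148550: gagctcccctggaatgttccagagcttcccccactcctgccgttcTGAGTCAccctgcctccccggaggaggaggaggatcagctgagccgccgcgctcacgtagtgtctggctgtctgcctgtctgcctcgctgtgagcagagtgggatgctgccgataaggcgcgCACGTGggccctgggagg
CTTN, 1820 bp downstream of its nearest TSS, chr11:70270354-70270505: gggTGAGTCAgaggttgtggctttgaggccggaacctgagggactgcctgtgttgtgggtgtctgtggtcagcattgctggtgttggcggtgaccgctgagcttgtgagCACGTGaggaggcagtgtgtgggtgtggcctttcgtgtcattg
AMN, chr14:103397737-103397871: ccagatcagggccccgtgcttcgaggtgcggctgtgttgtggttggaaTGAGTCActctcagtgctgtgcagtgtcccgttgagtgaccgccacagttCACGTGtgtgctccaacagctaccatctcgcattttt
OSCP1, chr1:36882540-36882645: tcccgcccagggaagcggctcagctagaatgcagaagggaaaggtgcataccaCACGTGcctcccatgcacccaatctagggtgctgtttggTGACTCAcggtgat
CTTN, 1406 bp downstream of its nearest TSS, chr11:70245978-70246129: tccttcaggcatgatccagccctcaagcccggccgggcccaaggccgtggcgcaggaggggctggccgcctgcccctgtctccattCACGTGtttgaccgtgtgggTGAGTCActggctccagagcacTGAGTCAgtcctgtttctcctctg
ADIRF-AS1, chr10:88731275-88731418: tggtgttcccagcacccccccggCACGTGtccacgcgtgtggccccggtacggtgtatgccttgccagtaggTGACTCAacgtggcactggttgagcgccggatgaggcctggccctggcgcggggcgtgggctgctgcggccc
ADI1P1, chr20:39958264-39958426: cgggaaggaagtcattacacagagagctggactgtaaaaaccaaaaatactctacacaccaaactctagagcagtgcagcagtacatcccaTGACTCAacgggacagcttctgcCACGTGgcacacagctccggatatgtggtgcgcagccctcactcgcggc

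In 4 of these 8 sequences the AP-1 motif lay within 50 bp of the Fra-1 summit and the E-box within 50 bp of the MYC summit, distances that the short regions limit. At FOSL1 the AP-1 motif was centred 8 bp from the Fra-1 summit and the E-box 27 bp from the MYC summit. At PDXK, the gene for pyridoxal kinase, these distances were 2 and 92 bp. At OSCP1 they were 26 and 2 bp. The CTTN gene, which encodes the actin-binding protein cortactin, had such a region at 2 places, one of them with 2 AP-1 motifs, the nearer 9 bp from the Fra-1 summit, and an E-box 4 bp from the MYC summit. ADIRF-AS1 is annotated as an antisense RNA and ADI1P1 as a pseudogene. The other regions lay downstream of the canonical TSS of the gene named, some of them far from it. The distance was 33460 bp at OSCP1, 9448 bp at PDXK, 8804 bp at AMN and 931 bp at FOSL1. At CTTN it was 25794 and 1418 bp.

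A different letter pattern, the cyclic AMP response element (CRE, TGACGTCA), occurred at regions with no AP-1 motif. It is shown for the 3 such regions that could be printed under the same limits, a set chosen after its values were seen, with the CRE in capitals.
RAB5IF, chr20:35233887-35234098: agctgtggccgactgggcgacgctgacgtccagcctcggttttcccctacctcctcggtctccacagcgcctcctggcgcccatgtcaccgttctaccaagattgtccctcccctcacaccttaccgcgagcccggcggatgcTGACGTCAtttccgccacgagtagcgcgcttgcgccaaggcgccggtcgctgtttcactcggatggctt
AMOTL2, chr3:134092640-134092743: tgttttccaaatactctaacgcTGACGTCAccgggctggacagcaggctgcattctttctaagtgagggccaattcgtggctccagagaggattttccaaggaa
ENSG00000273980, chr10:135072712-135072913: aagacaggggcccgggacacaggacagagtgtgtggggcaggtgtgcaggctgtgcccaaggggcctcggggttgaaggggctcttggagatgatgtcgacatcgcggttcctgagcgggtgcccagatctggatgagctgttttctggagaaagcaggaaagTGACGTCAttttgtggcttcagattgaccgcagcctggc

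In RAB5IF, AMOTL2 and ENSG00000273980 the CRE was centred 18, 1 and 7 bp from the Fra-1 summit. At RAB5IF it was nearer to the MYC summit, which lay 19 bp from the Fra-1 summit on the side of the CRE. In AMOTL2 and ENSG00000273980 the CRE was nearer to the Fra-1 than to the MYC summit. AMOTL2 encodes a junction protein that binds YAP.

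For depth, between 10758036 tags (input) and 23853621 tags (MYC) remained per library after duplicates were removed, and the lists held 17320 Fra-1, 4867 MYC and 36933 E2F1 peaks. The 615 regions involved 605 of the Fra-1 peaks, 610 of the MYC peaks and 588 of the E2F1 peaks, that is 3.49%, 12.5% and 1.59% of each list. Of 620 promoter overlaps of Fra-1 with MYC, 615 (99.2%) also had an E2F1 peak. The members are therefore nearly all the promoter overlaps of Fra-1 with MYC. All intervals below are 95% intervals that cover counting error over regions or windows only. No library was repeated, so they do not describe variation between cultures.

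Fold enrichment is the fragment pileup at a peak summit over the local input background, each with 1 added. It helped to choose the members, because each needed a called peak, and it is given as a description without a test. E2F1 was the strongest of the 3 factors at most regions and MYC the weakest. The Fra-1 fold had a median of 8.82 (interquartile range 6.52 to 13.4) and a range from 2.94 to 66.3. The MYC fold had a median of 6.99 (5.91 to 8.64) and a range from 2.996 to 26.5. The E2F1 fold had a median of 24.96 (15.8 to 39.1) and a range from 4.42 to 85.4. E2F1 had the highest fold at 497 regions and MYC the lowest at 382, while all 3 folds reached 10 at only 24 of the 615. The highest Fra-1 fold was in ATXN7L2, the highest MYC fold at RPL29, which encodes a ribosomal protein, and the highest E2F1 fold at GADD45B, a stress response gene. Because the libraries differ in depth, folds are only roughly comparable between factors. The input background under the peaks was low, with a median of 0.929 fragments under Fra-1 peaks, 0.861 under MYC peaks and 0.992 under E2F1 peaks.

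The strengths of the 3 factors were only weakly related. Across the 615 regions, Spearman's rank correlation between folds was −0.04 for Fra-1 with MYC (0.16 between pileups), −0.17 for Fra-1 with E2F1 (−0.15) and 0.27 for MYC with E2F1 (0.31). In the 412 distal three-factor regions the values between folds were 0.10 for Fra-1 with MYC, 0.32 for Fra-1 with E2F1 and 0.20 for MYC with E2F1. These are descriptions across regions of the same libraries, which share the input and are not independent. With distance from the TSS, the median E2F1 fold was 32.0 within 250 bp, 21.2 from 250 bp to 1 kb and 15.6 beyond 1 kb. The median Fra-1 fold went the other way, with 7.57, 9.91 and 11.4, and the MYC fold stayed between 6.81 and 7.08.

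The regions were short. Their median width was 129 bp (lowest 3, highest 544), and the E2F1 peaks were the widest, with a median of 846 bp against 194 bp for Fra-1 and 191 bp for MYC. The Fra-1 summit lay inside the shared stretch at 478 regions (77.7%) and the MYC summit at 490 (79.7%), but the E2F1 summit at 303 (49.3%). The median distance between summits was 47 bp for Fra-1 and MYC (interval 41 to 53), 73 bp for Fra-1 and E2F1 and 71 bp for MYC and E2F1. The overlap rule limits these distances. Fra-1 and MYC summits were within 50 bp of each other at 323 regions, and all 3 summits fell within 250 bp at 496. Along the direction of the nearest gene, the MYC summit was downstream of the Fra-1 summit at 316 regions and upstream at 296.

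At the edges of the rule, the narrowest members were 3 bp in CD55 (Fra-1 fold 10.1, MYC 5.46, E2F1 24.3), 7 bp at ABCC5 and 9 bp at TNK2, and 10 regions reached partly outside the windows. Just outside, three-factor regions lay 3, 21 and 30 bp from a window, and the nearest of them had folds of 11.3, 7.27 and 19.0 in the same order. MYC and E2F1 overlaps in promoters missed a Fra-1 peak by 1, 4 and 5 bp at their closest, and 138 had one within 300 bp.

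The regions lay closer to start sites than promoter regions with Fra-1 and E2F1 but no MYC, and farther than those with MYC and E2F1 but no Fra-1. The midpoint was within 250 bp of a TSS at 354 of 615 regions (57.6%, Wilson interval 53.6 to 61.4%), against 2500 of 3455 MYC and E2F1 regions (72.4%) and 1040 of 2830 Fra-1 and E2F1 regions (36.7%). The differences were −14.8 percentage points (Newcombe interval −19.0 to −10.7) and 20.8 points (16.5 to 25.04). Within 1 kb lay 507 members (82.4%), against 96.4% and 64.5%. Promoters shared by a divergent pair of protein-coding genes held 25 members (4.07%), against 9.87% of MYC and E2F1 regions and 0.919% of Fra-1 and E2F1 regions, and both intervals of the difference left out 0 (−7.47 to −3.71 and 1.78 to 5.04 points). The promoter window itself was part of the rule, but not the place within it. By their midpoint, 230 members lay in exons, 270 in introns and 115 between genes, and 373 lay upstream of the nearest TSS. With 1 canonical TSS per protein-coding gene in place of all annotated start sites, 366 regions were left, a rule that drops both alternative start sites and those of other gene types.

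AP-1 motifs and E-boxes were both frequent in the members, and each was rarer than in 1 of the pairwise classes. Sequence letters were not used to choose regions. They were searched on both strands in windows of 201 bp centred on each region, so that width could not set the share. An AP-1 motif was in 229 of 615 windows (37.2%, 33.5 to 41.1%), against 1.45% of MYC and E2F1 regions, 56.4% of Fra-1 and E2F1 regions and 2.13% of 19737 windows at canonical start sites. An E-box was in 97 windows (15.8%, 13.1 to 18.9%), against 21.6%, 2.44% and 5.70% in the same order. The AP-1 share was thus 19.2 points below that of the Fra-1 and E2F1 regions (difference −19.2, −23.3 to −14.9), while the median Fra-1 fold of those regions was 8.65. With lists of equal length this difference was −1.99 points (−17.0 to 13.2). The E-box share was 5.82 points below that of the MYC and E2F1 regions (difference −5.82, −8.83 to −2.45), but the interval included 0 with lists of equal length (−5.70, −11.2 to 3.62) and with reciprocal overlap of 50% (−5.89, −17.7 to 10.03). In side windows 2 kb away the AP-1 motif was in 3.41% and the E-box in 2.76%.

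**Figure D1:**
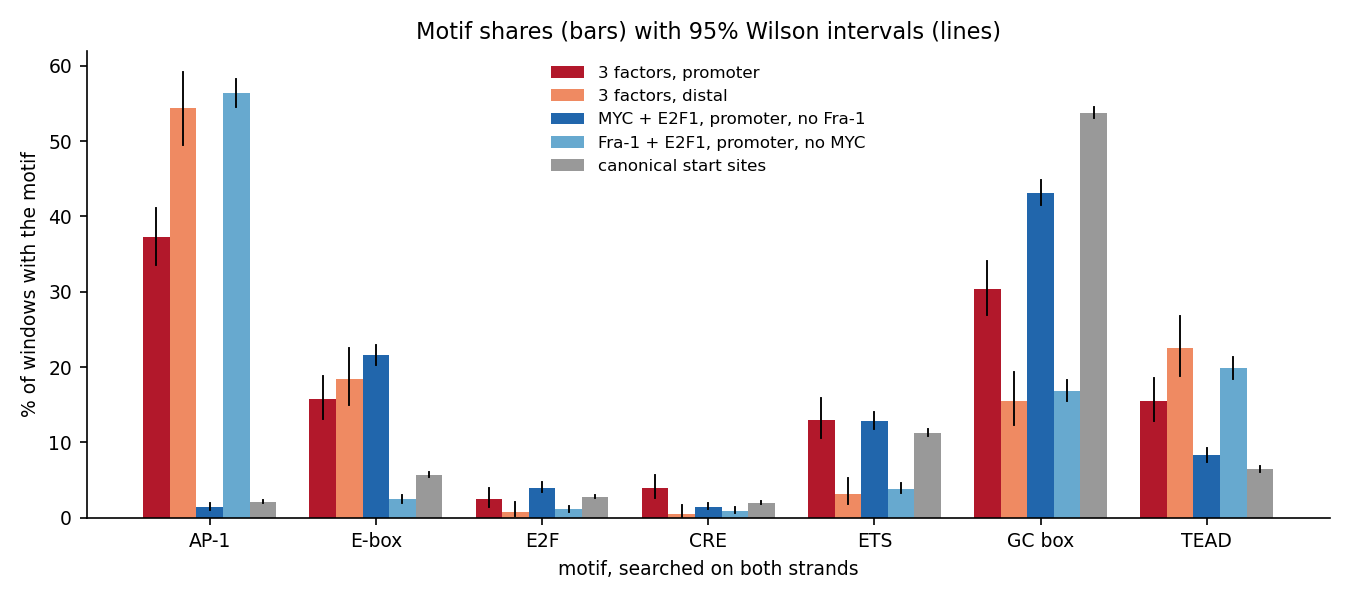
Share of 201-bp windows with each motif (bars, % of windows) and its 95% Wilson interval (lines), in the 615 three-factor promoter regions, the 412 distal three-factor regions, both pairwise promoter classes and windows at canonical start sites. The members stood between the pairwise classes for AP-1 (37.2%), for the E-box (15.8%), for the GC box (30.4%) and for TEAD (15.4%), and had the highest CRE share (3.90%).

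Against the distal three-factor regions, the AP-1 share was lower in the members by 17.1 points (54.4% distal; difference −17.1, −23.2 to −10.9). The E-box share was 18.4% in distal regions, and the interval of the difference included 0 (−2.67, −7.51 to 1.957). The AP-1 share of the members depended on where they lay. It was 26.6% within 250 bp of a TSS, 49.7% from 250 bp to 1 kb and 54.6% beyond 1 kb. The 108 members beyond 1 kb thus had nearly the share of the distal regions (difference 0.26, −10.3 to 10.5). Against the Fra-1 and E2F1 regions the difference was −23.4 points within 250 bp (−28.6 to −17.6), −10.3 points from 250 bp to 1 kb (−18.8 to −1.76) and −5.67 points beyond 1 kb, where the interval included 0 (−15.5 to 3.90). With the 3 lists cut to 4867 peaks each, 73 members were left, the AP-1 share was 67.1%, and the difference from distal regions was 9.55 points with an interval that included 0 (−9.44 to 28.9). The E-box share changed little with distance, from 14.4% within 250 bp to 18.5% beyond 1 kb.

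**Figure D2:**
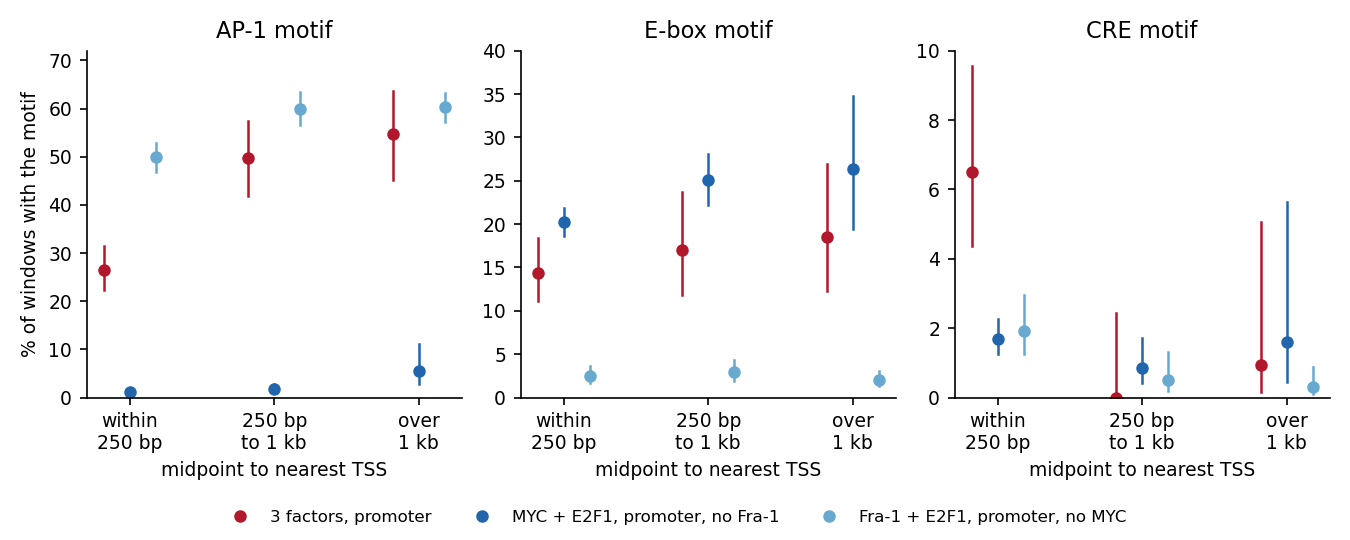
Share of windows (%) with an AP-1 motif, an E-box or a CRE by distance from the region midpoint to the nearest TSS, in the members and both pairwise promoter classes. Points are shares and lines 95% Wilson intervals, with a separate vertical scale for each motif. The AP-1 share of the members was 26.6% near the TSS and 54.6% beyond 1 kb, and the CRE share was 6.50% near the TSS.

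Base composition differed along with position. The median share of G and C in the windows was 62.7% in the members (interval 62.2 to 63.2%), 58.2% in the distal regions, 64.7% in the MYC and E2F1 regions and 52.7% in the Fra-1 and E2F1 regions. The median number of CpG dinucleotides was 11, against 5, 16 and 4. In windows of 60 to 70% GC, an AP-1 motif was in 34.4% of the members, 62.9% of the distal regions (difference −28.5, −37.1 to −19.2) and 58.6% of the Fra-1 and E2F1 regions (difference −24.1, −30.5 to −17.5). In windows of 50 to 60% GC the difference from distal regions was −6.81 points and its interval included 0 (−16.4 to 2.98). Position and base composition moved together, and their part in the difference was not tested separately.

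AP-1 motifs were most frequent at Fra-1 summits, and E-boxes at MYC summits. An AP-1 motif lay within 50 bp of the Fra-1 summit at 234 regions (38.0%), of the MYC summit at 146 and of the E2F1 summit at 118. An E-box lay within 50 bp of the MYC summit at 90 regions (14.6%), of the Fra-1 summit at 45 and of the E2F1 summit at 37. In the 43 windows with both motifs, the nearest AP-1 motif was closer to the Fra-1 than to the MYC summit in 28, and the nearest E-box was closer to the MYC summit in 32. Their AP-1 motif and E-box were a median of 50 bases apart (lowest 1, highest 148), with 7 regions at 20 bases or less.

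**Figure D3:**
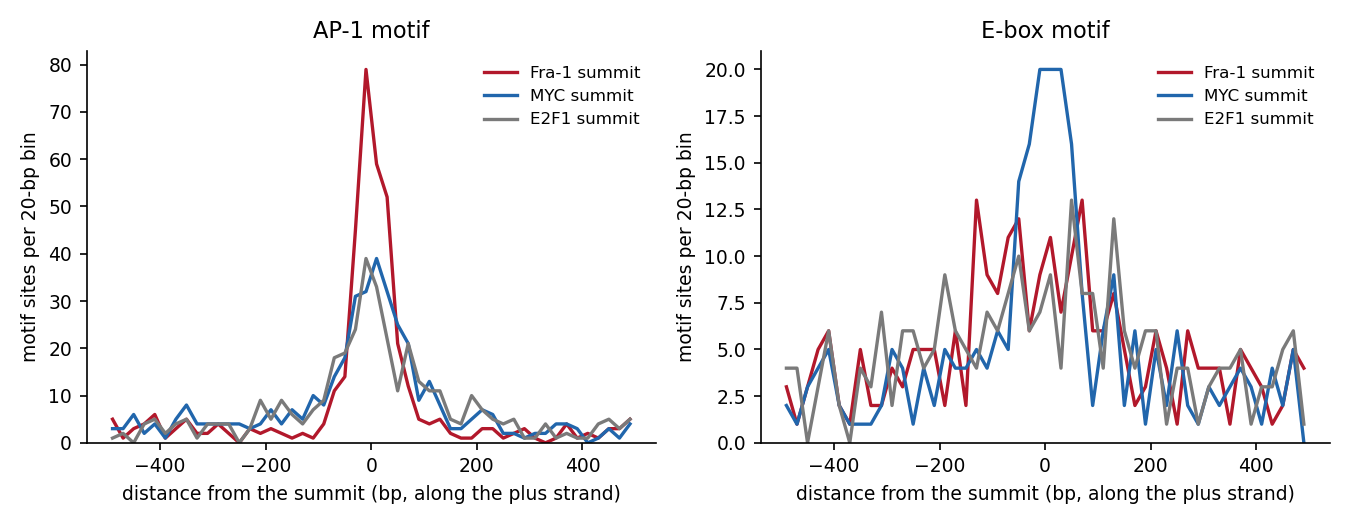
Motif sites per 20-bp bin by distance from the Fra-1, MYC and E2F1 summits (bp, plus strand) over the 615 regions, for AP-1 (left) and the E-box (right), with a separate vertical scale for each. AP-1 sites peaked at the Fra-1 summit, with 79 in the bin just before it, and E-boxes at the MYC summit, with 20 per bin.

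The members split into 4 groups by these motifs. An AP-1 motif without an E-box was in 186 windows, an E-box without an AP-1 motif in 54, both in 43 and neither in 332. The product of the AP-1 and E-box shares would place both in 36.1 windows, and the difference was not tested. The median Fra-1 fold was 13.3 with AP-1 alone and 11.1 with both, against 7.58 with an E-box alone and 7.54 with neither. The median MYC fold differed less, with 6.65, 7.31, 7.38 and 7.04 in that order. The median E2F1 fold was 20.8 with AP-1 alone and 18.7 with both, but 29.7 with an E-box alone and 30.7 with neither. The groups also differed in position, since 68.7% of the regions with neither motif lay within 250 bp of a TSS, against 40.3% of those with AP-1 alone.

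**Figure D4:**
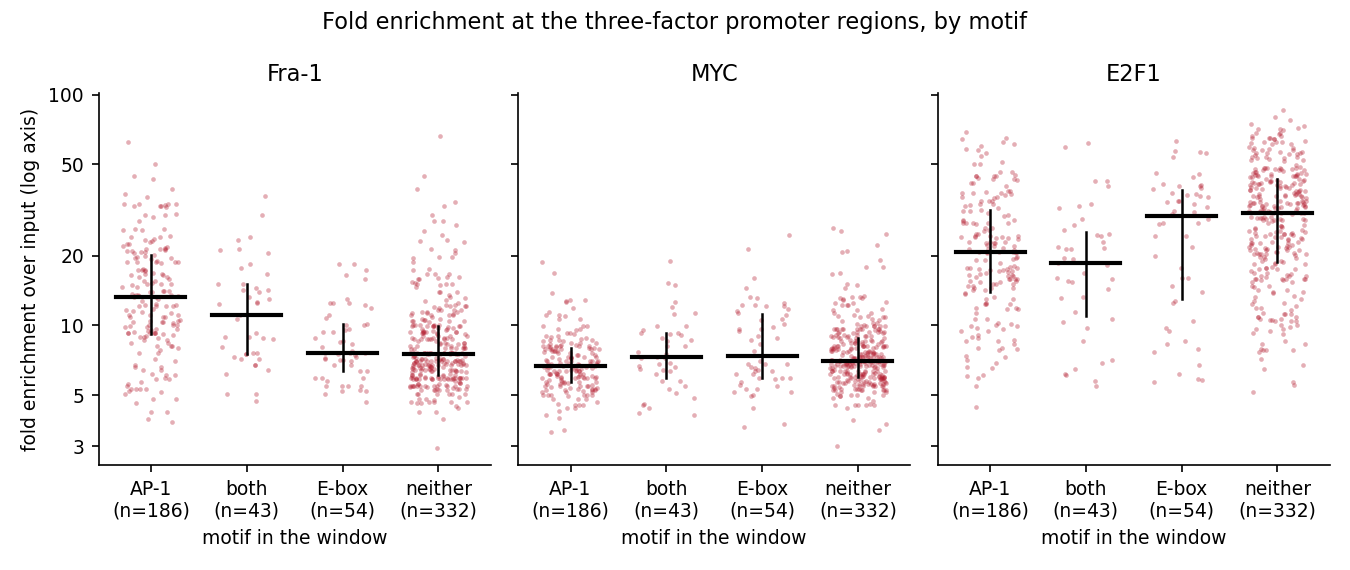
Fold enrichment of Fra-1, MYC and E2F1 (log axis) at each of the 615 regions (points), grouped by the motif in the 201-bp window, with the median (horizontal line) and interquartile range (vertical line). Fra-1 folds were higher in the groups with an AP-1 motif (medians 13.3 and 11.1) and E2F1 folds in those without (29.7 and 30.7).

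The E2F motif (TTTCCCGC, TTTGGCGC, TTTCGCGC or TTTGCCGC) was rare despite the strong E2F1 peaks. It was in 15 windows (2.44%, 1.48 to 3.98%), against 2.82% at canonical start sites, 4.02% of MYC and E2F1 regions and 1.17% of Fra-1 and E2F1 regions. It was in 0.728% of the distal regions, a difference of 1.71 points whose interval (0.02 to 3.33) left out 0 only narrowly and did not do so under 4 of the alternatives given below. Within 50 bp of the E2F1 summit it occurred at 14 regions. No window held all 3 motifs (0 of 615, which allows a share of up to 0.488%).

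The CRE was more frequent in the members than in the distal regions and both pairwise promoter classes. This palindrome, which differs from the AP-1 motif by an added base at its centre, is known as the site of CREB and ATF factors, and some pairs of AP-1 and ATF proteins bind it too. It was in 24 windows (3.90%, 2.64 to 5.74%), against 0.485% of the distal regions (difference 3.42, 1.63 to 5.29), 1.48% of the MYC and E2F1 regions (2.43, 1.08 to 4.30) and 0.954% of the Fra-1 and E2F1 regions (2.95, 1.61 to 4.81). At canonical start sites it was in 1.996% of windows. The alternatives given below were not run for the CRE. By base composition, the interval of its difference left out 0 against every class at 60 to 70% GC. At 50 to 60% GC it included 0 against the MYC and E2F1 regions (2.08, −0.08 to 5.76). Under 50% and at 70% GC or more it included 0 against every class. Of the 24, 23 lay within 250 bp of a TSS, where the share was 6.50% against 1.68% of the MYC and E2F1 regions (difference 4.82, 2.61 to 7.91) and 1.92% of the Fra-1 and E2F1 regions (difference 4.57, 2.21 to 7.71). In 23 of the 24 no AP-1 motif was in the window. In 14 of these 23 the CRE lay within 50 bp of the Fra-1 summit, a distance that the short regions and windows limit. The same count was not made for the MYC and E2F1 summits, so it does not show that the CRE centred on Fra-1. The split by AP-1 motif was made after the values were seen. The median folds of the 23 were 6.80 (Fra-1), 7.65 (MYC) and 43.9 (E2F1), against 7.56, 7.04 and 30.3 in the 363 members with neither a CRE nor an AP-1 motif. These groups also differed in position, since 22 of the 23 but 238 of the 363 lay within 250 bp of a TSS. The part of position in the folds was not tested.

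Motifs of general promoter factors did not all follow one class. The ETS motif (CCGGAAG) was in 80 windows (13.01%), against 3.16% of the distal regions and 3.89% of the Fra-1 and E2F1 regions, while the difference from the 12.9% of the MYC and E2F1 regions had an interval that included 0 (0.16, −2.53 to 3.24). The GC box (GGGCGG), bound by SP factors, was in 30.4%, against 15.5% of the distal regions, 43.2% of the MYC and E2F1 regions, 16.9% of the Fra-1 and E2F1 regions and 53.8% of windows at canonical start sites. The TEAD motif (GGAATG), whose factors often share enhancers with AP-1, was in 15.4%, against 22.6% of the distal and 8.34% of the MYC and E2F1 regions. The CCAAT box was in 13.7%, below both pairwise classes (18.9% and 19.8%), and the TATA box (TATAAA) in 2.28%. The NRF1 motif was in 2.44%, against 4.75% of the MYC and E2F1 regions, 0.243% of the distal regions and 0.742% of the Fra-1 and E2F1 regions. In all, 30 comparisons of 10 motifs were made with the 3 other classes, and the interval of the difference left out 0 in 24 of them. A match describes letters only and does not show that a factor bound there.

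The genes were counted when a member lay in the promoter window of any of their start sites. This gave 580 of 20098 protein-coding genes (2.89%) and 812 of 63827 annotated genes of all types (1.27%), a count that the rule fixes. Among the others were 186 lncRNA, 13 miRNA and 8 snoRNA genes. A protein-coding gene was assigned to 548 regions, and more than 1 to 88. Genes with a region had a median of 9 annotated start sites and genes without one 5, so that they also had more window in which a region could fall. A total of 51 genes had at least 2 regions. AHNAK, which encodes a giant scaffold protein at the plasma membrane, had 5, with Fra-1 folds from 6.99 to 13.6, and PPCDC, an enzyme of coenzyme A synthesis, had 4. Another 11 genes had 3 each, among them PLEC for the cytoskeletal linker plectin, SEPTIN9 and EHD1.

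The 20 regions with the largest minimum fold over the 3 factors were named, so that all of their folds are high by the choice. FOSL1, the gene for Fra-1 itself, came first with folds of 15.1 (Fra-1), 15.2 (MYC) and 61.9 (E2F1). FKBP10, which encodes a collagen chaperone, shared its region with P3H4, a gene of collagen modification, at 15.1, 24.8 and 26.9 in the same order. NME1, a nucleoside diphosphate kinase, had 13.6, 18.9 and 26.0. SLC3A2, the heavy chain of amino acid transporters, had 13.3, 12.6 and 30.2. The E2F1 fold was not always measured inside the region. At FOSL1 the E2F1 summit lay outside it, 993 bp from the Fra-1 summit and 2 bp from the TSS. At SLC3A2 and at MIR23AHG, listed below, the E2F1 summit also lay outside, 722 and 1492 bp from the Fra-1 summit.
EHD1, an ATPase of endocytic recycling, had 2 of the 20 regions, with Fra-1 folds of 62.3 and 36.1 and MYC folds of 11.9 and 11.5. DPP9, a dipeptidyl peptidase, had 33.5, 12.8 and 37.4. PPP1R13L, a regulator of apoptosis, shared its region with POLR1G, a subunit of RNA polymerase I, at 21.3, 12.7 and 35.7. ZC3H12A, an RNase that degrades inflammatory mRNAs, had 16.5, 11.1 and 20.8. P4HTM, a transmembrane prolyl hydroxylase, had 22.6, 10.9 and 34.5. WDR1, which helps to take actin filaments apart, had 23.4, 10.6 and 12.4, and ABR had 16.5, 12.2 and 12.8. The last 2 had E2F1 folds below the lower quartile of 15.8. The rest were LINC02709 with SBF2-AS1, PRR7, SBNO2, RAB5IF, ATXN7L2, AHNAK, MIR23AHG and C15orf39, with E2F1 folds from 10.9 at C15orf39 to 47.6 at RAB5IF. Many of these regions were not at the canonical TSS. The WDR1 region lay 21019 bp downstream of it and the ABR region 96054 bp downstream, each in an intron near an alternative TSS.

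The gene lists were drawn up with earlier results of these data known, so their counts are descriptions to be read beside the 2.89% of all protein-coding genes. For single factors, 13.2% of all protein-coding genes had a Fra-1, 17.8% a MYC and 61.3% an E2F1 peak in a promoter window, and among annotated genes of all types these shares were 7.14%, 7.71% and 28.9%. Among the AP-1 family genes, 3 of 14 had a region. At JUNB, the folds were 5.91 (Fra-1), 11.1 (MYC) and 61.3 (E2F1), and at MAFG, a partner of CNC factors, 8.18, 6.99 and 14.5. FOS and JUND had neither a Fra-1 nor a MYC promoter peak, and FOSL2 and JUN had a Fra-1 but no MYC promoter peak. In the MYC and MAX network 1 of 13 genes had a region, MXD3, a repressor that competes with MYC for MAX. MYC itself had an E2F1 promoter peak (fold 40.6) but none of Fra-1 or MYC.

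Genes of the actin cytoskeleton and focal adhesions had a region in 7 of 30 cases (23.3%). FLNA, the actin crosslinker filamin A, had 2, the stronger with folds of 12.4, 9.96 and 44.3 for Fra-1, MYC and E2F1. ACTN1, ACTN4, MYH9, PFN1 and ITGA3, which encode 2 alpha-actinins, a myosin heavy chain, profilin and an integrin subunit, were also among them, with Fra-1 folds from 5.05 (ACTN1) to 11.3 (ACTN4). Of the 30 genes, 18 had a Fra-1, 12 a MYC and 30 an E2F1 promoter peak.

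Host genes of small nucleolar RNAs, which carry these RNAs in their introns, had a region in 6 of 24 cases, to be read beside the 1.27% of all annotated genes because most are not protein-coding. Their MYC folds were 21.0 at SNHG1, 19.1 at SNHG20, 17.9 at SNHG17, 11.8 at SNHG12, 7.55 at DANCR and 6.35 at EPB41L4A-AS1, while their Fra-1 folds ran from 4.41 at EPB41L4A-AS1 to 8.82 at DANCR. The SNHG20 region was shared with the protein-coding gene SEC14L1. In this list 20 genes had a MYC and 7 a Fra-1 promoter peak, and 6 of those 7 had an overlap of all 3. Translation initiation factor genes had 4 of 23. EIF2S1 and EIF2B1, a subunit of eIF2 and one of its exchange factor, had MYC folds of 11.6 and 11.7 and Fra-1 folds of 5.91 and 6.52. EIF4A1 and EIF4EBP1, an RNA helicase and an inhibitor of the cap-binding factor, were the other two. The nucleolar list had 24 of 28 genes with a MYC promoter peak. In it 1 gene had a region, NOLC1 (10.04, 11.01 and 46.1). This share of 3.57% lies near the 2.89% of all protein-coding genes and is no result about the list.

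Glycolysis and glucose transport had 4 of 22 genes with a region, all with an AP-1 motif in the window. They were SLC2A1, the glucose transporter GLUT1, with a Fra-1 fold of 22.03, a MYC fold of 4.78 and an E2F1 fold of 15.5, and in the same order ALDOA (15.1, 9.96 and 57.3), ENO1 (9.65, 16.9 and 59.8) and SLC16A3, a lactate exporter (24.3, 7.98 and 24.1). ALDOA and ENO1 encode the enzymes aldolase and enolase. The S100 genes, for small calcium-binding proteins, had 3 of 17, with S100A2 at 33.1, 7.94 and 31.4, S100A16 at 18.8, 5.91 and 49.9 and S100A6 at 5.23, 6.14 and 56.2. Splicing factor genes had 4 of 34 (HNRNPD, HNRNPH1, SNRPA and SNRPD1), with Fra-1 folds from 5.16 to 7.58.

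Signalling lists had 1 or 2 genes with a region each, or none. Immediate early genes had 2 of 20 (10%), IER2 and ZFP36L1, and MAPK feedback genes 2 of 17 (11.8%), the phosphatases DUSP6 (15.1, 6.85 and 51.9) and DUSP14. YAP and TEAD targets had 2 of 16 (12.5%), AMOTL2 and the receptor kinase AXL (14.7, 4.53 and 13.1). SMAD3, VIM (vimentin), NFKBIA and HSP90AB1 were the only ones of their lists, which held 17, 12, 13 and 26 genes (5.88%, 8.33%, 7.69% and 3.85%). At VIM the folds were 17.5, 4.40 and 46.2, and at HSP90AB1 5.91, 17.9 and 77.8.

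No region was found at the 29 DNA replication genes, the 23 cyclin and cell cycle kinase genes, the 13 E2F, DP and pocket protein genes, the 12 EGFR family genes or the 14 luminal identity genes. In lists of this size, a count of 0 lies near the 2.89% of all protein-coding genes and is no result about these genes. E2F1 promoter peaks were at 29 of 29, 21 of 23 and 13 of 13 genes in the first 3 of these lists, and MYC promoter peaks at 11, 8 and 5. Fra-1 promoter peaks were at 3, 1 and 0. The nine-gene set of the study had 0 of 9, which at this list size is likewise no result. The paper describes coordinated binding of its TFs in the promoter regions of this set. A shared stretch is a stricter rule than peaks in the same promoter, and the fourth TF is not counted here. The promoter peaks in the lists used were as follows. SFN had a promoter peak of each factor (folds of 9.21 (Fra-1), 5.53 (MYC) and 64.6 (E2F1)), but they did not overlap at a common stretch. ADORA2B and PAICS had MYC and E2F1 peaks without Fra-1, SH3GL1 had Fra-1 and E2F1 peaks without MYC, and ABHD11, E2F1, EZH2, IGFBP3 and PTP4A1 had E2F1 peaks alone.

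**Figure D5:**
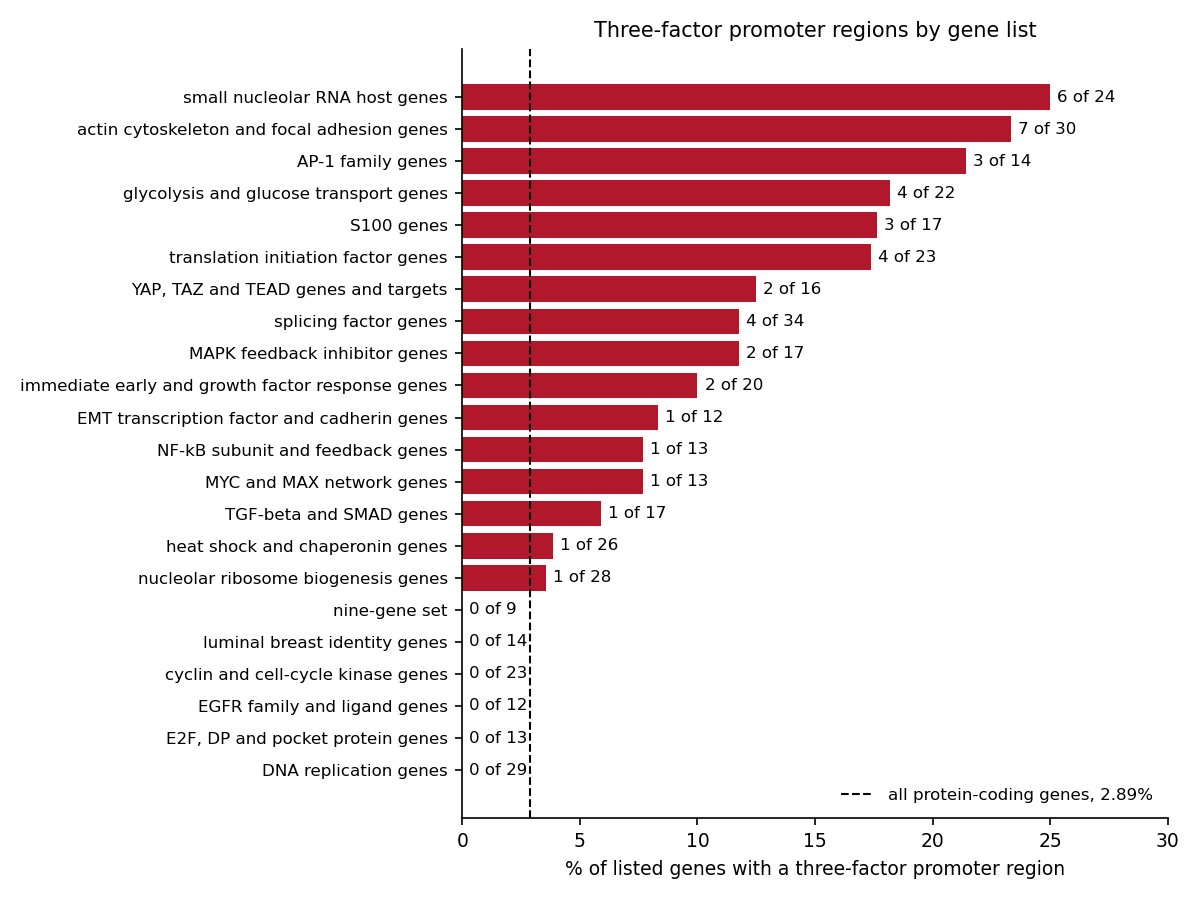
Share of the genes in each of 22 lists (%) with at least 1 three-factor promoter region, with counts beside the bars and the share of all protein-coding genes (2.89%) as a dashed line. Small nucleolar RNA host genes (6 of 24) and actin and focal adhesion genes (7 of 30) had the highest shares, and 6 lists had 0.

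The members were spread unevenly over the chromosomes. Over all chromosomes there were 3.06 regions per 100 protein-coding genes. Chromosome 20 had 7.86 (43 regions), chromosome 17 had 5.89 (70), chromosome 11 had 5.54 (73) and chromosome X had 0.460 (4). The peaks themselves were also uneven: per 100 genes, chromosome 20 had 28.7 Fra-1 and 31.8 MYC promoter peaks and chromosome X 6.56 and 6.79. The median input background under MYC promoter peaks was 0.909 fragments on chromosome 20 and 0.351 on chromosome X. On chromosome 6 it was 0.876, with 1.34 regions per 100 genes, and on chromosome 19 it was 0.572, with 4.53. The part of input coverage in these counts was not tested.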

How the data were processed

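The peaks called for each of 3 factors (Fra-1, MYC, E2F1), with 1 ChIP-Seq library per factor from LM2 cells, were analysed. The libraries labelled EZH2 and input entered only as far as the input served as the control of each list. The authors trimmed reads (Trimmomatic 0.27), kept uniquely aligned reads (Bowtie 0.12.5, masked hg19), removed duplicates and called peaks per library against 1 input by MACS2 (2.0.10.20120913, q-value cutoff 0.01). Deposited by the authors per peak are the pileup signal at the summit, the fold enrichment (a ratio to the local input background) and −log10 p- and q-values. MACS2 scaled the larger library to the smaller and kept 1 tag per position, so weak sites depend on depth, and the input was the shallowest library.

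Regions were intersected and classed with GENCODE 44 mapped to GRCh37 (219871 start sites). On chromosomes 1 to 22 and X lay 17311 of 17320 Fra-1, 4857 of 4867 MYC and 36901 of 36933 E2F1 peaks. None of these ran past a chromosome end. Where several peaks of a factor covered a region, the one with the highest fold was taken. Motifs were searched in 201-bp windows. Shares have 95% Wilson intervals, differences of shares Newcombe intervals, called where they leave out 0, and medians exact binomial intervals. With 1 library per factor, no test over samples was possible. A share of 0 is given with the limit of 3 counts. The members and lists were chosen with earlier results of these data known. Named are FOSL1, MYC, E2F1 and the nine-gene set, the genes at the 20 regions with the largest minimum fold, and up to 6 members per gene list. Some items that this rule names are not reported here. In addition RPL29, GADD45B and the genes with the most regions were named after their values were seen. Sequences are printed only for regions of at most 300 bp that touch no annotated exon, and chromosome 8 is left out. Alternatives were stricter peaks, equal lists, other overlap, window, start-site and motif rules. Procedures were tested on simulated data. Python 3.11.15, numpy 2.4.6, scipy 1.17.1, pysam 0.24.0 and matplotlib 3.10.9 were used.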

Additional observations from a re-analysis of the deposited data

Results flagged for a closer look

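A signal appeared outside the chromosomes used in the report: 4 further regions with peaks of all 3 factors lay on 1 unplaced sequence of hg19. Their folds ran from 2.34 to 9.18 over the 3 factors.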

How the results depend on the processing

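Of 142 alternative values, 107 were classed as the same. Those with an interval kept their direction and side of the threshold or stayed within the spread. Counts have no interval, and some clear losses were classed as the same too. Canonical start sites left 409 of 580 protein-coding genes, and summits within 250 bp left 496 of 615 regions. With a −log10 q of at least 5 there were 383 regions at 357 protein-coding genes with a Fra-1 to MYC summit distance of 40 bp, and the difference from distal regions was −6.58 points for the E-box, whose interval then left out 0, and 1.28 points for the E2F motif, whose interval then included 0. With lists of 4867 peaks each there were 73 regions at 65 genes, with AP-1 in 67.1%, the E-box in 10.96% and 60.2% GC. The differences from distal regions turned to 9.55 points for AP-1 and 4.90 points for the E-box, with intervals that included 0, and that for the E2F motif was 2.74 points. The differences from Fra-1 and E2F1 regions were −1.99 points for AP-1 and 5.08 points for the E-box, and that from MYC and E2F1 regions was −5.70 points for the E-box, with intervals that then included 0. With reciprocal overlap of 50% there were 39 regions at 34 genes, 56.4% within 1 kb of a TSS, a summit distance of 23 bp, the E-box in 25.6%, the E2F motif in 0 and 60.7% GC. The E2F difference from distal regions turned to −1.08 points and the E-box difference from MYC and E2F1 regions was −5.89 points, with intervals that included 0. With summits within 250 bp the E2F difference from distal regions was 1.82 points and its interval included 0. A window of 1 kb either side gave 98.3% within 1 kb. Canonical start sites gave 366 regions with AP-1 in 27.3% and 64.2% GC. Motif windows of 50 bp either side gave AP-1 in 25.2%, the E-box in 9.43% and E2F in 1.46%, and the whole region gave AP-1 in 29.6% and the E-box in 13.01%. The alternatives with fewer peaks or narrower windows hold fewer regions or bases by construction, and other causes were not tested. No paired analysis was possible because each factor had 1 library and no test over samples was made. Depth limits weak peaks: MYC folds were mostly under 10, and a region without a called peak may hold signal under the threshold.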
